A study of Mus musculus with 23 samples.

Results

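Claudins and tight junction genes of the mouse colonic epithelium were compared across diets: Cldn2, Cldn3, Cldn4, Cldn7, Cldn8, Cldn15, Cldn23, Ocln, Tjp1 and F11r. The members were the loci of the deposited count table whose gene symbol equals one of these names, which found 10 of 10, out of 24917 loci in the table. The study asked what long-term feeding of a high-fat diet, and a later return to a low-fat diet, leave in the transcriptome of the colonic epithelium. All animals were male C57BL/6 mice, written C57BL/6J in the study's methods. They were 6 weeks old when the diets began, and lard was the fat source of both diets. LF mice received the diet with 10% fat for 43 weeks, HF mice the diet with 60% fat for 43 weeks, and HFLF mice the diet with 60% fat for 15 weeks followed by the diet with 10% fat for 28 weeks. The epithelium of the entire colon was released with EDTA, and ribosomal RNA was depleted before total RNA was sequenced. The labels place the 23 samples in 2 batches without saying what a batch is: batch 1 held 4 LF, 3 HF and 4 HFLF samples, and batch 2 held 4 LF, 3 HF and 5 HFLF samples. Total counts ran from 29189922 to 65320947 per sample. The study's methods name fewer mice per regimen than there are samples per diet, and whether all samples come from different mice is not known; p-values then measure the spread between samples only.

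Tight junctions seal the space between neighbouring epithelial cells near their apical border. Claudins form the strands of the junction: some, such as Cldn2 and Cldn15, make channels that let small cations and water pass between cells, while others, such as Cldn3, Cldn4, Cldn7 and Cldn8, are known mainly for tightening the barrier. Occludin (Ocln) is a second kind of strand protein, zonula occludens 1 (Tjp1) is the scaffold that ties the strands to the actin skeleton, and junctional adhesion molecule A (F11r) is an adhesion protein of the immunoglobulin family that acts in assembling the junction.

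Cldn23 was lower in HF than in LF samples and Cldn2 was higher in HF than in HFLF samples, in each batch without overlap of the groups. A gene was called changed at an adjusted p below 0.05 (edgeR, over all genes tested) with a fold above 1.2. Of the 10 members, 1 was called between HF and LF in batch 2 (Cldn23, lower), where 7.44% of 14377 genes tested were called. In batch 1 the same comparison called 0 of 10 members and 0% of 14428 genes; 3 members (Cldn2, Cldn23 and Ocln) and 3198 genes had an unadjusted p below 0.05, and DESeq2 called 2 members (Cldn2 and Cldn23) and 479 genes. Fitted over both batches with batch as a term, HF against LF called 3 of 10 members (Cldn2 and Cldn4 higher, Cldn23 lower) against 18.1% of 14385 genes. Return to the low-fat diet, HFLF against HF, called 2 of 10 members in batch 2 (Cldn2 lower, Cldn23 higher) with 14.5% of genes called, 0 of 10 in batch 1 with 0.00693% of genes called, and 1 of 10 over both batches (Cldn2, lower) with 10.3% of genes called. In batch 1 the HFLF against HF comparison had 1 member (Cldn2) with an unadjusted p below 0.05, beside 1566 of 14428 genes. DESeq2 called 0 members and 14 genes there. HFLF against LF called 0 of 10 members in batch 1 (0% of genes), in batch 2 (0.00696% of genes) and over both batches (0% of genes), and DESeq2 called 0 members in each. At an unadjusted p below 0.05, edgeR had 1, 3 and 2 of the 10 members in these fits, beside 763 of 14428, 669 of 14377 and 591 of 14385 genes. By edgeR, the shares of members called thus lay near or only modestly above or below those of all genes. The counts of called members set the list apart from the genome in no edgeR comparison. With DESeq2 in batch 1, HF against LF called a larger share of members (2 of 10) than of all genes (479 genes), a difference that was not tested.

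Members were also counted by groups that did not overlap, in the same direction in both batches. Cldn23 was the 1 of 10 members whose HF samples all lay below the LF samples in each batch, where 4.84% of 14180 genes separated HF from LF in this way. Cldn2 and Cldn23 were the 2 members whose HFLF samples were separated from the HF samples in each batch, against 2.12% of genes. None of the 10 members separated HFLF from LF, against 0.0423% of genes. The median log2 fold change of the 10 members was 0.034 for HF minus LF in batch 1 and 0.016 in batch 2, beside -0.0038 and -0.013 over all genes tested. For HFLF minus HF the members' median was 0.0096 in batch 1 and -0.026 in batch 2, beside -0.0033 and 0.012 over all genes.

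**Figure D1:**
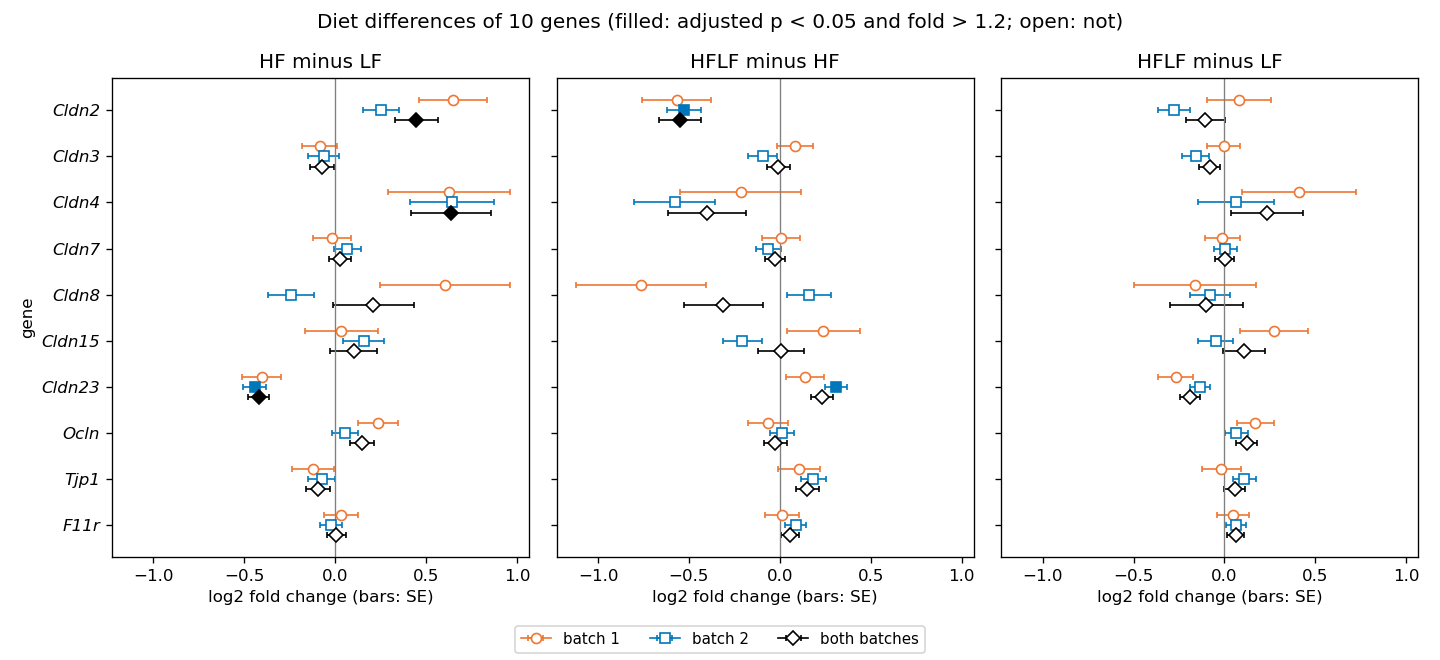
Log2 fold change (horizontal axis, bars are standard errors) of each of the 10 genes (vertical axis) for HF minus LF, HFLF minus HF and HFLF minus LF, fitted in batch 1 (circles), batch 2 (squares) and over both batches (diamonds); filled symbols mark an adjusted p below 0.05 with a fold above 1.2. Cldn23 lies between -0.44 and -0.40 in every fit of HF minus LF, and Cldn8 changes side between the batches, from 0.60 to -0.24.

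The samples carried the markers of colonic epithelium. The summed level of 8 epithelial markers, of which Krt8 was the most abundant, ran from 10931 to 15287 CPM (counts divided by the sample's total and multiplied by 1e6, scaled by TMM factors within each batch), and Hoxb13, a marker of the distal colon, was present in all 23 samples. Markers of other cells were low: 6 leukocyte markers summed to 15.3 to 27.9 CPM, 7 endothelial markers to 7.21 to 20.004 CPM and 6 smooth muscle markers to 0.541 to 50.2 CPM. Smooth muscle markers differed between single samples of one group by more than their group means did between diets in batch 1. Their median log2 fold change there was 0.16 for HF minus LF, 1.90 for HFLF minus HF and 2.01 for HFLF minus LF. By edgeR none was called, and 0, 2 and 4 of 6 had an unadjusted p below 0.05. Beside these stood 3198, 1566 and 763 of 14428 genes. The smooth muscle sums in batch 1, with Myh11 the most abundant gene, were 1.16, 3.47, 9.33 and 11.2 CPM in LF, 10.1, 9.51 and 0.541 CPM in HF and 24.2, 50.2, 2.51 and 19.3 CPM in HFLF. In batch 2 they were 19.9, 7.40, 31.0 and 5.86 CPM in LF, 4.68, 0.858 and 3.26 CPM in HF and 15.3, 1.84, 2.15, 11.2 and 6.09 CPM in HFLF. All 3 HF samples of batch 2 therefore lay below all 4 LF samples for this list, whose part in the differences of the junction genes was not tested. In a tissue sample, fewer cells of a type and less RNA per cell cannot be told apart.

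HF replicate 3 of batch 1 stood apart from the other 2 HF samples of its batch. Its Cldn8 level was 135 CPM against 43.7 and 41.4 CPM, its Cldn4 level 60.1 CPM against 31.0 and 24.8 CPM, and its Cldn15 level 97.7 CPM against 206 and 165 CPM. The same sample had the lowest summed smooth muscle level of all 23 samples, with Cnn1 and Actg2 at a count of 0, and the lowest endothelial sum, with Cdh5, Emcn and Cldn5 at 0. Its total count was 46450956, and those of HF replicates 1 and 2 were 46498521 and 31816330.

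Per length of exon, Cldn3 and Cldn7 were the most abundant members and Cldn4 and Cldn8 the least. Levels were divided by the union of exons in the GENCODE vM21 basic annotation, because counts of a long gene exceed those of a short one at the same transcript level. In LF samples of batch 1, the level was 369 ± 20.4 CPM per kb (SD, n = 4) for Cldn3 and 364 ± 25.1 CPM per kb for Cldn7, and the samples of these 2 genes overlapped. F11r followed at 92.3 ± 5.87 CPM per kb and Cldn15 at 80.2 ± 7.73 CPM per kb, again overlapping each other and lying below Cldn7 in every sample. Lower on the per-kb scale came Cldn23 at 50.4 ± 6.83, Ocln at 39.3 ± 2.24, Cldn2 at 38.7 ± 9.84 and Tjp1 at 34.1 ± 3.04 CPM per kb, and the last 3 of these overlapped from one gene to the next. Cldn8 at 20.5 ± 3.03 CPM per kb and Cldn4 at 13.8 ± 3.46 CPM per kb closed the order, and their samples also overlapped. The order by mean differed between groups for several neighbouring genes, such as Cldn3 with Cldn7, F11r with Cldn15 and Cldn4 with Cldn8. On the same scale Cldn2 ranked 7 in LF, 5 in HF and 7 in HFLF samples of batch 1, while Cldn23 ranked 5, 7 and 6. In batch 2, Cldn2 ranked 6 in LF, 5 in HF and 6 in HFLF samples, and Cldn23 ranked 5, 6 and 5.

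**Figure D2:**
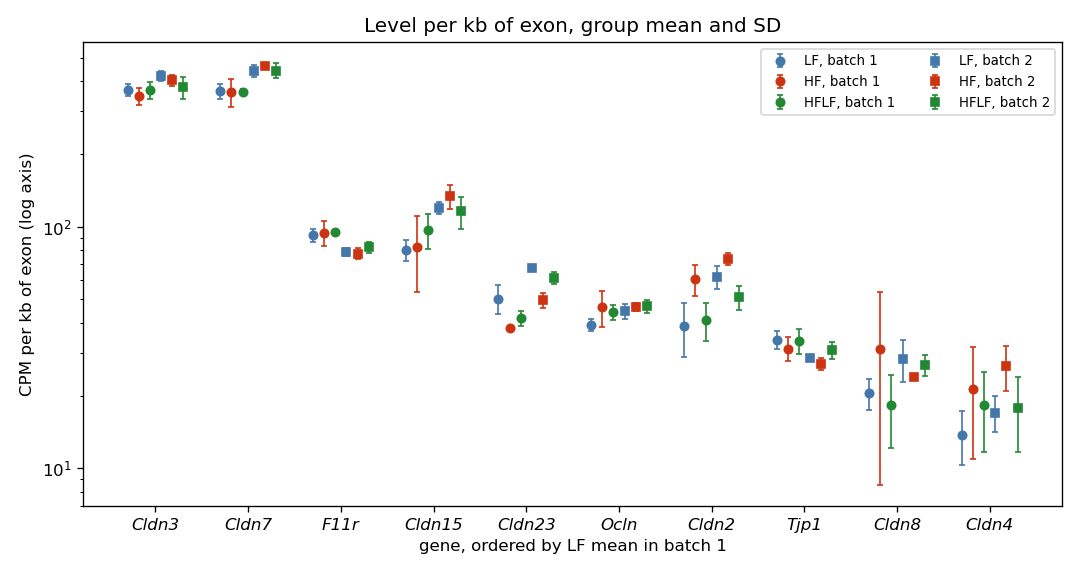
Level of each gene (horizontal axis) in CPM per kb of exon (vertical log axis) as group mean with SD, coloured by diet, with circles for batch 1 and squares for batch 2 (n = 3 to 5 samples a group). Cldn3 and Cldn7 lie highest in all 6 groups, and Cldn8 in HF of batch 1 has the widest SD relative to its mean.

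Among the pore-forming members, Cldn2 (Entrez 12738, mm10 chromosome X, 139800808 to 139811388, plus strand), which forms a channel for cations and water and is known from crypt cells of the gut, was measured in batch 1 at 107, 80.6, 140.0 and 144 CPM in LF samples. The HF samples of that batch had 166, 172 and 216 CPM and the HFLF samples 157, 107, 119 and 115 CPM. Every HF sample of batch 1 was thus above every LF and every HFLF sample, and LF and HFLF overlapped. Group means were higher in batch 2 for each diet, though CPM were scaled within each batch and not put on one scale between batches. Batch 2 had 219, 175, 179.7 and 179.9 CPM in LF, 227, 235 and 210.2 CPM in HF and 148, 146, 153, 142 and 187 CPM in HFLF. There LF replicate 1 reached into the HF range, and all 5 HFLF samples lay below all 3 HF samples. The group means were 118 ± 29.9, 185 ± 27.1 and 125 ± 22.1 CPM (SD, n = 4, 3 and 4) in LF, HF and HFLF of batch 1, and 188 ± 20.6, 224 ± 12.7 and 155 ± 18.4 CPM (n = 4, 3 and 5) in batch 2.

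HF minus LF for Cldn2 was 0.65 ± 0.19 on the log2 scale (± SE, 1.57-fold, adjusted p = 0.160, edgeR) in batch 1 and 0.25 ± 0.098 (adjusted p = 0.0985) in batch 2, neither of which passed the threshold. Over both batches Cldn2 rose in HF by 0.45 ± 0.12 (1.36-fold, adjusted p = 0.0108), and 6 of 6 HF samples were above the LF mean of their batch. HFLF minus HF was -0.57 ± 0.19 (adjusted p = 0.412) in batch 1, and Cldn2 fell by 0.53 ± 0.093 in batch 2 (1.44-fold lower, adjusted p = 0.0102, lower in 5 of 5 samples). Over both batches it fell by 0.55 ± 0.11 (1.47-fold lower, adjusted p = 0.0100), and 9 of 9 HFLF samples lay below all HF samples of their batch. The call in batch 2 was lost without HF replicate 2 of that batch (-0.51, adjusted p = 0.0757), a sample without which the genes called in this comparison dropped from 2084 to 11. HFLF minus LF was 0.079 ± 0.18 in batch 1 and -0.28 ± 0.087 in batch 2 (adjusted p = 0.917 and 0.958), so the HFLF samples of batch 2 tended to lie under the LF samples without passing the test.

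Cldn15 (Entrez 60363, mm10 chromosome 5, 136967869 to 136975845, plus strand), the other cation channel former of the list, had 168, 133, 151 and 158 CPM in LF, 206, 165 and 97.7 CPM in HF and 173, 147, 215 and 203 CPM in HFLF samples of batch 1. In batch 2 it had 225, 214, 229 and 244 CPM in LF, 223, 276 and 263 CPM in HF and 181, 269, 212, 204 and 234 CPM in HFLF. All diets overlapped in both batches, and the HF samples of batch 1 spanned the widest range, from the lowest to nearly the highest value of that batch. HF minus LF was 0.034 ± 0.20 in batch 1 (adjusted p = 0.928), 0.29 without HF replicate 3 and -0.22 without HF replicate 1. In batch 2 it was 0.16 ± 0.11 (adjusted p = 0.331). HFLF minus HF was 0.24 ± 0.20 in batch 1 and -0.21 ± 0.11 in batch 2 (adjusted p = 0.645 and 0.166). Without HF replicate 3 the batch 1 value was -0.014, and without HF replicate 1 it was 0.49. Without HFLF replicate 2 of batch 2 the batch 2 value passed the threshold, at -0.30 with an adjusted p of 0.0295.

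Of the barrier-forming claudins, Cldn4 (Entrez 12740, mm10 chromosome 5, 134945124 to 134946934, minus strand) ranked last per length in LF samples of both batches. Its levels in batch 1 were 26.8, 17.1, 32.2 and 24.1 CPM in LF, 31.0, 24.8 and 60.1 CPM in HF and 45.1, 16.5, 34.9 and 36.7 CPM in HFLF. Batch 2 gave 27.2, 25.9, 33.5 and 36.8 CPM in LF, 48.8, 37.7 and 57.8 CPM in HF and 19.5, 37.7, 47.6, 24.5 and 31.9 CPM in HFLF. The HF samples of batch 2 all lay above the LF samples, though HF replicate 2 did so narrowly, while the groups overlapped in batch 1 and HFLF overlapped both other diets. HF minus LF was 0.63 ± 0.33 in batch 1 (adjusted p = 0.273) and 0.64 ± 0.23 in batch 2 (adjusted p = 0.0818). Over both batches Cldn4 rose by 0.64 ± 0.22 (1.55-fold, adjusted p = 0.0342), with 5 of 6 HF samples above the LF mean of their batch. This call was lost on leaving out any 1 of 5 samples: HF replicate 3 of batch 1 (0.49, adjusted p = 0.113), LF replicate 2 of batch 1 (0.57, adjusted p = 0.0643), or LF replicate 1, HF replicate 1 or HF replicate 3 of batch 2 (0.63, 0.62 and 0.55, adjusted p = 0.0535, 0.0566 and 0.0823). In batch 1 alone the difference was 0.16 without HF replicate 3. HFLF minus HF was -0.22 ± 0.33 in batch 1 and -0.58 ± 0.22 in batch 2 (adjusted p = 0.811 and 0.0744). Without HF replicate 3 the batch 1 value turned to 0.25, and without HFLF replicate 3 the batch 2 value passed at -0.77 (adjusted p = 0.0266).

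Cldn8 (Entrez 54420, mm10 chromosome 16, 88560826 to 88563183, minus strand), a barrier claudin of the distal gut and kidney, had 51.8, 54.1, 38.0 and 49.1 CPM in LF, 43.7, 41.4 and 135 CPM in HF and 62.5, 44.6, 36.2 and 29.0 CPM in HFLF samples of batch 1. In batch 2 it had 74.6, 80.4, 61.4 and 50.8 CPM in LF, 55.8, 57.9 and 55.5 CPM in HF and 65.6, 64.2, 69.6, 63.5 and 52.9 CPM in HFLF. A single library, HF replicate 3, carried the high HF mean of batch 1, the remaining HF samples lying inside the LF range, and in batch 2 the groups overlapped. HF minus LF was 0.60 ± 0.36 in batch 1 (adjusted p = 0.317), -0.17 without HF replicate 3, and -0.24 ± 0.13 in batch 2 (adjusted p = 0.185). Leaving out LF replicate 4 of batch 2 brought the batch 2 value past the threshold, at -0.36 (adjusted p = 0.0274). Without LF replicate 2 of batch 2 it was -0.14. HFLF minus HF was -0.77 ± 0.36 in batch 1 (adjusted p = 0.463), 0.011 without HF replicate 3, and 0.16 ± 0.12 in batch 2 (adjusted p = 0.332).

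**Figure D3:**
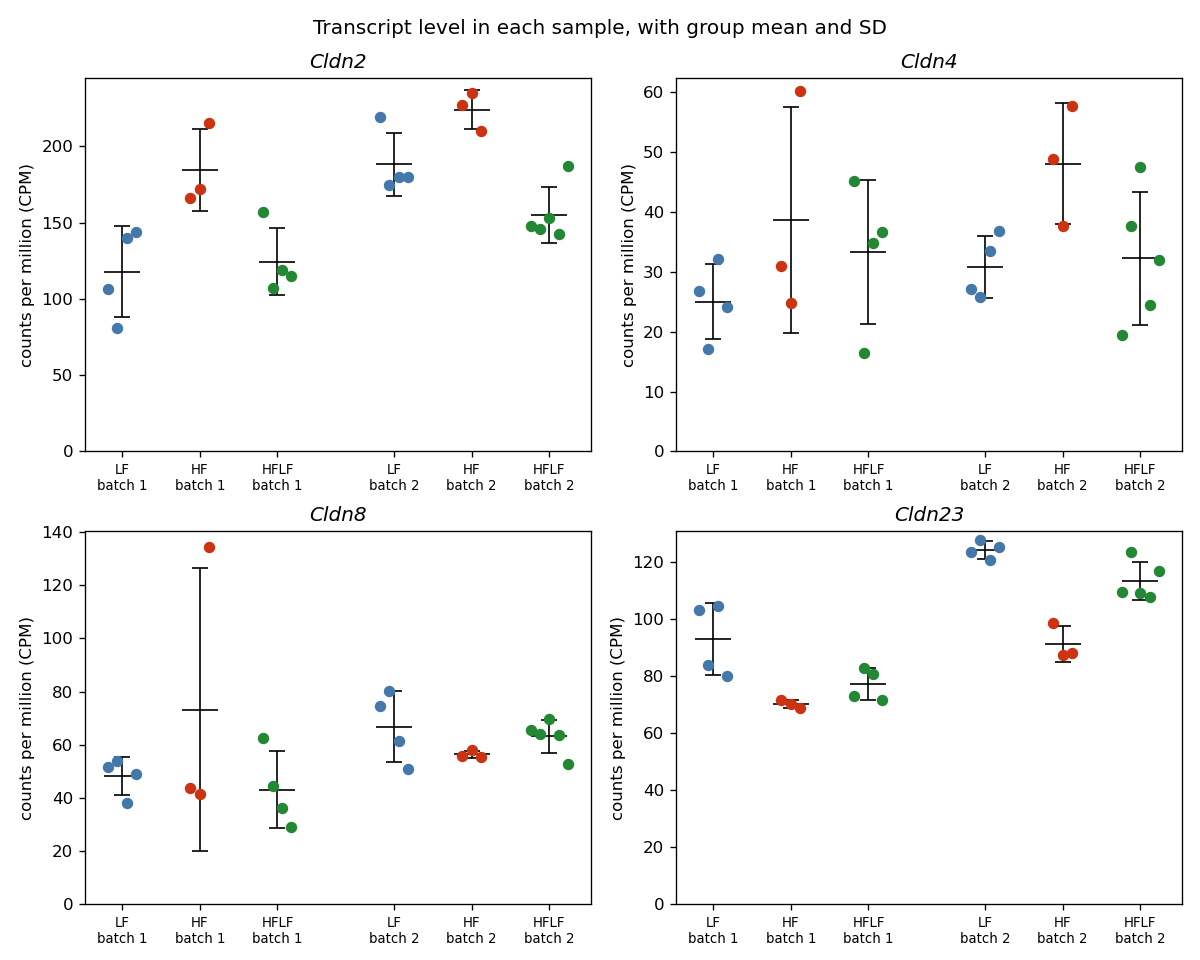
Level in CPM (vertical axes, from 0) of Cldn2, Cldn4, Cldn8 and Cldn23 in each sample (points, coloured by diet) with group mean and SD (black bars), for the 3 diets in each batch. HF replicate 3 of batch 1 is the point at 135 CPM for Cldn8, and all HF points for Cldn23 lie below the LF points of their batch.

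The remaining barrier claudins, Cldn3 (Entrez 12739, mm10 chromosome 5, 134986214 to 134987476, plus strand) and Cldn7 (Entrez 53624, mm10 chromosome 11, 69964779 to 69967886, plus strand), were the most abundant per length and were called in no diet comparison. Cldn3 and Cldn4 are neighbours on opposite strands of chromosome 5, with 39279 bases between them. Cldn3 had 489.6, 466, 429 and 474 CPM in LF, 436, 402 and 475 CPM in HF and 505, 443, 483 and 423 CPM in HFLF samples of batch 1, and in batch 2 it had 525, 515, 515 and 569 CPM in LF, 510.0, 532 and 482 CPM in HF and 416, 509, 525, 431 and 497 CPM in HFLF. The diets overlapped in each batch, with the lowest HFLF samples of batch 2 under all others of that batch. There 4 of 5 HFLF samples lay below the lowest LF sample. HFLF minus LF of Cldn3 in batch 2 was -0.16 ± 0.074 (edgeR, unadjusted p = 0.0496, adjusted p = 0.9996). Cldn7 had 579.9, 539, 489.5 and 543 CPM in LF, 520.1, 468 and 607 CPM in HF and 540.0, 534, 549.7 and 509.7 CPM in HFLF samples of batch 1, and in batch 2 it had 606, 671, 635 and 692 CPM in LF, 674, 696 and 677 CPM in HF and 603, 698, 705, 616 and 642 CPM in HFLF. The diets overlapped in each batch here as well. For Cldn3, Cldn7 and F11r together, log2 fold changes within a batch lay between -0.16 and 0.088 over the 3 comparisons, with no adjusted p below 0.285. The last 44 bases of the Cldn3 locus overlap Wbscr25 on the other strand, and since the strand setting of the counting is not given in the sources used here, reads of the 2 genes there may not have been separated.

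Cldn23 (Entrez 71908, mm10 chromosome 8, 35824709 to 35826559, minus strand), a claudin known from differentiated cells of the colonic surface, showed the most regular diet difference of the list. Its levels in batch 1 were 103, 84.1, 105 and 80.3 CPM in LF, 71.7, 70.4 and 68.8 CPM in HF and 73.1, 83.1, 81.0 and 71.8 CPM in HFLF. In batch 2 they were 124, 128, 121 and 125 CPM in LF, 98.8, 87.5 and 88.2 CPM in HF and 109, 124, 109, 108 and 117 CPM in HFLF. Each HF sample was below each LF and each HFLF sample of its batch, although in batch 1 the lowest HFLF sample, at 71.8 CPM, was within 0.2 CPM of the highest HF sample. HFLF samples overlapped LF samples in both batches and had the middle mean in both, at 77.2 ± 5.62 CPM (SD, n = 4) and 113 ± 6.77 CPM (n = 5), between 70.3 ± 1.44 and 91.5 ± 6.31 CPM in HF (n = 3 and 3) and 93.0 ± 12.6 and 124 ± 3.05 CPM in LF (n = 4 and 4).

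Relative to LF, Cldn23 in HF differed by -0.40 ± 0.11 in batch 1 (adjusted p = 0.146) and fell by 0.44 ± 0.064 in batch 2 (1.36-fold lower, adjusted p = 0.00666, lower in 3 of 3 samples). Over both batches it fell by 0.42 ± 0.060 (1.34-fold lower, adjusted p = 5.2e-04, lower in 6 of 6 samples), and this call held in all 29 alternatives run, with adjusted p-values up to 0.00475. Among these, dropping the fold threshold reuses the same fit and cannot undo a call. Leaving out an HFLF sample removes no HF or LF sample. HFLF minus HF was 0.14 ± 0.10 in batch 1 (adjusted p = 0.613), and Cldn23 rose by 0.31 ± 0.061 in batch 2 (1.24-fold, adjusted p = 0.0132, higher in 5 of 5 samples). Over both batches the difference of 0.23 ± 0.058 had an adjusted p of 0.0165 but a fold of 1.17, under the threshold of 1.2. Without HF replicate 2 of batch 2, both calls of that batch were lost (-0.40, adjusted p = 0.0694, for HF against LF and 0.27, adjusted p = 0.106, for HFLF against HF), and the genes called between HF and LF dropped from 1069 to 15. HFLF minus LF was -0.27 ± 0.097 in batch 1 and -0.13 ± 0.055 in batch 2 (adjusted p = 0.792 and 1.00), both below 0 and neither past the test.

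Occludin (Ocln, Entrez 18260, mm10 chromosome 13, 100497367 to 100552498, minus strand) had 176, 172, 158 and 158 CPM in LF, 179.8, 173 and 234 CPM in HF and 196, 168, 189 and 194 CPM in HFLF samples of batch 1. In batch 2 it had 175, 207, 182 and 191 CPM in LF, 199, 187 and 202 CPM in HF and 179, 199, 194, 207 and 209 CPM in HFLF. The diets overlapped in both batches, and HF replicate 3 of batch 1 was again the highest sample. HF minus LF was 0.24 ± 0.11 in batch 1 (adjusted p = 0.225), 0.094 without HF replicate 3, and 0.055 ± 0.070 in batch 2 (adjusted p = 0.607). Over both batches the value was 0.15 ± 0.065 (adjusted p = 0.0909), and 0.090 without HF replicate 3 of batch 1.

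The scaffold gene Tjp1 (Entrez 21872, mm10 chromosome 7, 65296165 to 65371244, minus strand) had 235, 257, 262 and 215 CPM in LF, 193, 239 and 236 CPM in HF and 229.8, 237, 213 and 278 CPM in HFLF samples of batch 1. In batch 2 it had 198, 207, 209.6 and 198 CPM in LF, 197, 181 and 201 CPM in HF and 236, 194, 207, 235 and 223 CPM in HFLF. Groups overlapped throughout, with the HFLF samples of batch 2 reaching higher than the others of that batch. HFLF minus HF was 0.11 ± 0.12 in batch 1 and 0.18 ± 0.070 in batch 2 (adjusted p = 0.723 and 0.0735), and the batch 1 value was 0.018 without HF replicate 1. A 411-base stretch of the Tjp1 locus is shared with the unclassified gene Gm44794 on the same strand. Whether this stretch holds exon of Tjp1, and whether Gm44794 was in the annotation used for counting, was not checked. F11r (Entrez 16456, mm10 chromosome 1, 171437561 to 171464593, plus strand) had 239, 238, 210.4 and 242 CPM in LF, 228, 215 and 271 CPM in HF and 245, 243, 239 and 235 CPM in HFLF samples of batch 1. In batch 2 it had 191, 208, 196 and 197 CPM in LF, 196, 204 and 185 CPM in HF and 205, 218, 218, 196 and 199 CPM in HFLF, and the diets overlapped in both batches.

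Whether the diet differences themselves differed between the batches was tested with a batch by diet interaction. No gene of 14385 had an adjusted p below 0.05 in any of the 3 comparisons (edgeR; 943, 1105 and 1090 genes had an unadjusted p below 0.05), and the smallest adjusted p of a member was 0.759 for HF minus LF, 0.641 for HFLF minus HF and 0.659 for HFLF minus LF. For Cldn8, whose sign changed between the batches, HF minus LF was -0.85 ± 0.41 in batch 2 relative to batch 1 (unadjusted p = 0.0512, adjusted p = 0.759). HFLF minus HF of Cldn8 was 0.92 ± 0.40 in batch 2 relative to batch 1 (adjusted p = 0.641), and its unadjusted p of 0.0329 was the 1 below 0.05 among the members. Without HF replicate 3 of batch 1, HFLF minus HF of Cldn8 in batch 1 moved from -0.77 to 0.011, beside 0.16 in batch 2. Its HF minus LF in batch 1 moved from 0.60 to -0.17, beside -0.24 in batch 2. Another tool was not run for this test.

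Of 18 further loci with a claudin symbol, 4 had no count in any sample and 4 (Cldn12, Cldn14, Cldn20 and Cldn25) were tested in both batches, with Cldn10 tested in batch 2 alone. None was called in any comparison by edgeR. Over both batches 18.1% of all genes were called for HF against LF and 10.3% for HFLF against HF. At an unadjusted p below 0.05 were 2 of 4 tested over both batches for HF against LF and 1 for HFLF against HF. Beside these stood 6058 and 5157 of 14385 genes. Cldn12, the most abundant of them, had means of 90.6 ± 10.4, 115 ± 21.3 and 97.3 ± 8.56 CPM (SD, n = 4, 3 and 4) in LF, HF and HFLF of batch 1. In batch 2 its means were 99.3 ± 9.43, 111 ± 1.501 and 96.8 ± 5.40 CPM (n = 4, 3 and 5). Its HF minus LF over both batches was 0.26 ± 0.076, with an adjusted p of 0.0178 and a fold below the threshold. Cldn5, the claudin of blood vessels, had at most 6 counts in any sample.

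Of 38 other tight junction genes with a row, 37 were tested. In batch 2, 1 was called higher and 3 lower in HF than in LF, where 7.44% of all genes were called, and 7 were called higher and 0 lower in HFLF than in HF, beside 14.5% of all genes. Over both batches 0 were higher and 4 lower in HF than in LF, beside 18.1% of all genes, and 3 were higher and 0 lower in HFLF than in HF, beside 10.3%. These counts do not set the list apart from all genes. In batch 1, edgeR called 0 of 37 in any comparison. At an unadjusted p below 0.05 it had 9 for HF against LF, 3 for HFLF against HF and 5 for HFLF against LF. Beside these stood 3198, 1566 and 763 of 14428 genes. HFLF against LF in batch 2 also had 0 calls and 0 of 37 at that p, beside 669 of 14377 genes. DESeq2 counts were not taken for the lists of other genes. The median log2 fold change of the 37 genes for HF minus LF was -0.024 in batch 1, -0.10 in batch 2 and -0.056 over both batches, beside -0.0038, -0.013 and -0.0080 over all genes. For HFLF minus HF it was 0.0045, 0.10 and 0.027 in the same fits, beside -0.0033, 0.012 and 0.012 over all genes.

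The angiomotin relatives Amotl1 and Amotl2, which bind junction scaffolds, gave the largest of these differences in HF against LF over both batches. Amotl1 fell by 0.53 ± 0.13 in HF relative to LF over both batches (adjusted p = 0.00888, edgeR) and rose by 0.56 ± 0.13 in HFLF relative to HF (adjusted p = 0.0138). Amotl2 fell by 0.56 ± 0.12 (adjusted p = 0.00522) and rose by 0.34 ± 0.12 (adjusted p = 0.0475). Prkcz, the atypical protein kinase of the Par polarity complex, fell by 0.28 ± 0.061 and rose by 0.34 ± 0.060 in the same comparisons (adjusted p = 0.00563 and 0.00538). Magi1, a junction scaffold, fell by 0.29 ± 0.075 over both batches in HF relative to LF (adjusted p = 0.0103). The other genes called in batch 2 were Vapa, higher in HF than in LF by 0.28, and Pard3, Inadl, Mllt4 and Arhgap17, higher in HFLF than in HF by 0.28, 0.32, 0.38 and 0.31 on the log2 scale.

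Of 17 adherens junction and desmosome genes, 2 were called in HF against LF over both batches, where 18.1% of all genes were called. The nectin gene Pvrl1 fell in HF relative to LF over both batches, by 0.38 ± 0.11 (adjusted p = 0.0186), and rose in HFLF relative to HF, by 0.36 ± 0.11 (adjusted p = 0.0348). The desmosomal cadherin Dsc2 rose in HF relative to LF by 0.30 ± 0.081 (adjusted p = 0.0123). The remaining 15 genes of this list, Cdh1 and Ctnnb1 among them, were not called in HF against LF over both batches. In batch 2 edgeR called 0 of 17 for HF against LF, beside 7.44% of all genes called, and 1 (Pvrl1) for HFLF against HF beside 14.5%. For HF against LF in batch 2, 3 of 17 had an unadjusted p below 0.05, beside 4761 of 14377 genes. In batch 1 edgeR called 0 of 17 in each comparison. At that p it had 3 for HF against LF, 0 for HFLF against HF and 1 for HFLF against LF. Beside these stood 3198, 1566 and 763 of 14428 genes.

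Markers of epithelial states moved in part with the same comparisons. Over both batches 6 of 7 proliferation markers were called higher in HF than in LF (Mki67, at 0.23 ± 0.18, was not called), where 18.1% of all genes were called, with a median log2 fold change of 0.61 beside -0.0080 over all genes. Within batches edgeR called 0 of 7 in HF against LF, beside 0% of all genes in batch 1 and 7.44% in batch 2. In batch 1, 6 of 7 had an unadjusted p below 0.05, beside 3198 of 14428 genes, and the median was 0.91. In batch 2, 2 of 7 were at that p, beside 4761 of 14377 genes, and the median was 0.27. HFLF against HF called 0 of 7 in each fit. Over both batches its median was -0.34, with 3 at that p beside 5157 of 14385 genes. In batch 1, where Cldn2 and Cldn4 were also higher in HF on average, the summed level of the 7 proliferation markers was 200.3, 187, 379 and 185 CPM in LF, 355, 297 and 531 CPM in HF and 426, 281, 235 and 325 CPM in HFLF, with Mki67 the most abundant. In batch 2 it was 487, 407, 437 and 396 CPM in LF, 456, 504 and 409 CPM in HF and 431, 414, 325, 368 and 545 CPM in HFLF. The diets overlapped in both batches for this sum, and its part in the Cldn2 and Cldn4 results was not tested. Of 7 crypt base markers, 1 (Smoc2) was higher and 1 (Axin2) lower in HF than in LF over both batches, and of 8 surface colonocyte markers 1 (Slc20a1) was lower. In the same comparison 2 of 8 goblet cell markers (Tff3 and Agr2) and 2 of 5 enteroendocrine markers (Pyy and Gcg) were higher, 1 of 4 tested endothelial markers (Vwf) and 1 of 6 fibroblast markers (Pdgfra) lower, and 0 of 8 epithelial, 0 of 4 tuft cell, 0 of 6 smooth muscle, 0 of 4 leukocyte, 0 of 3 distal colon and 0 of 1 tested glial markers were called. The smooth muscle and fibroblast medians in that comparison were -1.37 and -0.68, beside -0.0080 over all genes. By edgeR 1 of 6 in each of these lists had an unadjusted p below 0.05, beside 6058 of 14385 genes. In batch 2 alone, where Cldn23 was called in HF against LF along with 7.44% of all genes, the epithelial state markers called were Smoc2 (higher), Axin2 and Sox9 (both lower; crypt base, 3 of 7), Slc20a1 (lower; surface, 1 of 8), Pyy and Gcg (higher; enteroendocrine, 2 of 5) and Tff3 (higher; goblet, 1 of 8). In the same comparison 1 of 6 smooth muscle markers (Actg2) was called lower, with a median log2 fold change of -2.40. All 6 of 6 had an unadjusted p below 0.05, beside 4761 of 14377 genes. The fibroblast median there was -1.10, with 0 of 6 called by edgeR and 3 at that p, and the part of these markers in the Cldn23 result was not tested. For HFLF against HF in batch 2, where Cldn2 and Cldn23 were called along with 14.5% of all genes, the markers called higher were Tek and Vwf (endothelium, 2 of 3 tested), Cd3e (leukocytes, 1 of 4), Axin2 (crypt base, 1 of 7) and Slc20a1 (surface, 1 of 8). Those called lower were Pyy and Gcg (enteroendocrine, 2 of 5), Tff3 and Agr2 (goblet, 2 of 8) and Smoc2 (crypt base, 1 of 7). The smooth muscle median there was 1.06, with 0 of 6 called. Over both batches, beside 10.3% of all genes, HFLF against HF called Vwf (1 of 4), Axin2 (1 of 7) and Slc20a1 (1 of 8) higher. It called Pyy and Gcg (2 of 5) lower. The smooth muscle and fibroblast medians were 1.58 and 0.77, with 0 of 6 called in each. At an unadjusted p below 0.05 were 3 and 2 of these, beside 5157 of 14385 genes. The part of these markers in the Cldn2 and Cldn23 results was not tested.

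Genes whose levels ran most closely with the called members were found by Pearson correlation of log2 CPM, centred within each batch, over 23 samples, whose diets and depths differ and are common to both genes of a pair. Cldn23 correlated most highly with Acta1 (0.86), Spry1 (0.85) and Pck1 (0.85), and most negatively with Vkorc1l1 (-0.82). For Cldn2 the highest were Lrrc59 (0.89), Mgll (0.88) and Gsg2 (0.87), and the lowest was Ap3b1 (-0.91). Cldn4 was closest to Paqr8 (0.89), Clca6 (0.88) and Fam162a (0.88), and farthest from Akap2 (-0.88). These values describe the best of 14384 genes each and carry no test.

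The start regions of Cldn2 and Cldn4 are shown because these were the members that rose in HF over both batches. RefSeq promoter windows (GRCm38.p6, 250 bases before to 50 after the start) were matched by symbol for 8 of 10 members, and the transcription starts of both genes coincide with the locus starts of the count table. Short motifs, chosen after the levels were known, were searched on both strands: the TATA box as TATAAA, the CCAAT box by its name's letters, the GC box as GGGCGG, the AP-1 motif as TGANTCA and the CDX motif as TTTATG. Capitals mark each match, and no matches overlap one another.
Cldn2, chrX:139800558-139800857, plus strand: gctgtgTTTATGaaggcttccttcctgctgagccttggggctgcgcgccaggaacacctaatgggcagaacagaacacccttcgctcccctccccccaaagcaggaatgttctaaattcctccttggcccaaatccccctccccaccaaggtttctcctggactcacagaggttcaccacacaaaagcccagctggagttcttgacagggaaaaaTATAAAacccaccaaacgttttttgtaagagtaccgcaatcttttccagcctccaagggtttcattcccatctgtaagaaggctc
Cldn4, chr5:134946885-134947184, minus strand: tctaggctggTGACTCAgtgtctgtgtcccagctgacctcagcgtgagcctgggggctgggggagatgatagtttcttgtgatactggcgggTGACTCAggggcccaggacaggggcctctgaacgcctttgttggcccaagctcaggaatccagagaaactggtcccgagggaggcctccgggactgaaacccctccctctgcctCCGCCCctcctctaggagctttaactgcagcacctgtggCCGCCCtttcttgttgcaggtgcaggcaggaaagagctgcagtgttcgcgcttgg
The Cldn2 window held 1 TATAAA, which begins at position -35 from the start, and 1 TTTATG. The Cldn4 window held neither of these but 2 TGANTCA, at positions -240 and -158, and 2 GGGCGG, read as CCGCCC on the printed strand. Of all 32851 windows, TATAAA was in 13.6%, TTTATG in 11.9%, TGANTCA in 7.81%, GGGCGG in 35.7% and CCAAT, which neither window held, in 37.4%. A match is a description of these letters only.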

How the data were processed

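The authors sequenced total RNA of colonic epithelium after ribosomal RNA depletion with a stranded kit, trimmed reads with cutadapt 1.2.1, aligned them to mm10 with STAR 2.5 and deposited whole-number read counts per gene locus from featureCounts 1.5.0-p1; the tools are those of the submitters' processing notes. The strand setting and the treatment of reads that map to several loci are not given in the sources used here.

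From the deposited counts, edgeR 4.0.16 (R 4.3.3) was run with TMM factors, its default filter on low counts by diet, and the quasi-likelihood F test, with Benjamini-Hochberg adjustment over all genes tested. The 3 diets of a batch shared 1 fit, and a fit over both batches had batch as a term. All 10 members passed the filter in each fit. Levels are CPM scaled within a batch. Alternatives were DESeq2 1.42.0, RLE factors, no filter, no fold threshold, a replicate block, same-numbered samples summed over batches, and leaving out each sample. Named genes included all members, called genes of the other lists, and the 3 highest and 1 lowest correlated genes of each called member. Some genes that were not called, such as Cldn12, Mki67, Cdh1 and Krt8, were named as well. The members and lists were chosen with earlier results of these data known.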

Additional observations from a re-analysis of the deposited data

Results flagged for a closer look

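In 3 of 40 groups tested, 1 sample lay far from the others of its group by its gap relative to the group's range; chance flags about 1 in 20 groups, so 2 of 40. F11r in LF replicate 3 of batch 1 was low at 210.4 CPM, where the other LF samples of the batch had 238 to 242 CPM. Cldn2 in LF replicate 1 of batch 2 was high at 219 CPM, beside 175 to 179.9 CPM in the others. Cldn2 in HFLF replicate 5 of batch 2 was high at 187 CPM, beside 142 to 153 CPM, and still below every HF sample of that batch. Groups of 3 samples, which include all HF groups and so HF replicate 3 of batch 1, were not tested in this way. By the interaction test no member's diet difference passed an adjusted p of 0.05 between the batches, and Cldn8 in HFLF minus HF (0.92 ± 0.40) had an unadjusted p of 0.0329. Without HF replicate 3 of batch 1, the batch 1 value of Cldn8 was 0.011 in place of -0.77, beside 0.16 in batch 2.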

How the results depend on the processing

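Each of 10 members in 3 comparisons and 3 fits gave 90 results, recomputed under 1860 alternatives in all. Of these, 1750 kept the direction and the side of the threshold, 8 lost a call, 9 gained one and 93 changed direction, 83 of them by leaving out a sample (in 28 results) and 10 under another setting. None of the 7 called results changed direction under any alternative run. Dropping the fold threshold reuses the same fit, so it can neither change a direction nor undo a call. Leaving out a sample of the diet not compared removes no sample of the compared diets. Over both batches, Cldn2 and Cldn23 for HF against LF and Cldn2 for HFLF against HF stayed called in all 29 alternatives (adjusted p 0.00221 to 0.0313, 2.84e-08 to 0.00475 and 3.55e-04 to 0.0315). Cldn4 for HF against LF had 0.0116 to 0.113. The cause of the changes below was not tested.

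With DESeq2, the genes called in batch 1 were 479 for HF against LF (2 members), 14 for HFLF against HF and 4 for HFLF against LF; in batch 2 they were 1853 for HF against LF and 15 for HFLF against LF, and over both batches 6 for HFLF against LF. RLE scaling called 1 gene for HF against LF in batch 1. With no filter on low counts, 2 genes were called for HF against LF and 2 for HFLF against HF in batch 1. With a replicate block, that is the replicate number as a term within each batch, the genes called were 92 for HF against LF and 0 for HFLF against HF in batch 1, 2080 for HF against LF and 0 for HFLF against LF in batch 2, and 1 for HFLF against LF over both batches. With the block, Cldn23 for HF minus LF over both batches was -0.45 (adjusted p = 4.7e-04). Across diets, 5 of 10 same-numbered pairs in batch 1 and 4 of 10 in batch 2 had a correlation above 0.1, with medians of 0.069 and 0.077 beside -0.017 and -0.043 for differently numbered pairs. Across batches, within a diet, it was 4 of 11 same-numbered pairs, beside 9 of 34 differently numbered pairs, with medians of -0.011 and -0.013. Whether the numbers link samples is thus not settled by these values. With no fold threshold, 4079 genes were called for HF against LF and 2371 for HFLF against HF over both batches, 2 of them members in the latter, Cldn23 being added. With same-numbered libraries summed, 2 members were called for HFLF against HF (Cldn23 at 0.27, adjusted p = 0.0277) and 1 gene for HFLF against LF.

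The 10 changes of direction under other settings concerned values near 0. In HFLF minus LF of batch 1, Cldn3 was 0.0080 with DESeq2, 0.0067 with RLE scaling and 0.0029 with no filter. In HFLF minus HF of batch 2, Ocln was -8.6e-06 with DESeq2, -0.0076 with no filter and -0.030 with the block. In HFLF minus HF over both batches, Cldn15 was -0.010 with no filter, -0.0021 with the block and -0.043 with libraries summed. Cldn7 in HFLF minus LF over both batches was -0.0040 with no filter.

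Leaving out 1 sample at a time, genes called in batch 1 ran from 0 to 1352 for HF against LF (the latter without HF replicate 2), from 0 to 3 for HFLF against HF and from 0 to 6 for HFLF against LF. In batch 2 they ran from 15 (without HF replicate 2) to 2560 (without LF replicate 4) for HF against LF, from 11 (without HF replicate 2) to 2778 (without HFLF replicate 2) for HFLF against HF, and from 0 to 2 for HFLF against LF. Over both batches they ran from 1591 (without HF replicate 3 of batch 1) to 3703 (without HF replicate 2 of batch 1), from 501 to 2669 without the same samples, and from 0 to 3. Members called in batch 2 ran from 0 to 3 for HF against LF and from 0 to 3 for HFLF against HF.

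The lowest and highest log2 values of results whose direction changed were as follows. HF minus LF in batch 1 gave Cldn7 -0.12 to 0.070, Cldn8 -0.17 to 0.89, Cldn15 -0.22 to 0.29 and F11r -0.062 to 0.10. HFLF minus HF in batch 1 gave Cldn4 -0.45 to 0.25, Cldn7 -0.081 to 0.10, Cldn8 -1.05 to 0.011, Cldn15 -0.014 to 0.49, Ocln -0.15 to 0.078 and F11r -0.055 to 0.11. HFLF minus LF in batch 1 gave Cldn2 -0.058 to 0.20, Cldn3 -0.046 to 0.041, Cldn7 -0.062 to 0.035, Tjp1 -0.093 to 0.035 and F11r -0.0045 to 0.070. In batch 2, HF minus LF gave F11r -0.048 to 0.015 and HFLF minus HF gave Ocln -0.036 to 0.044. HFLF minus LF in batch 2 gave Cldn4 -0.13 to 0.20, Cldn7 -0.033 to 0.035, Cldn8 -0.19 to 0.020 and Cldn15 -0.14 to 0.014. Over both batches, HF minus LF gave Cldn8 -0.20 to 0.29 and F11r -0.026 to 0.034. HFLF minus HF gave Cldn3 -0.042 to 0.0062, Cldn8 -0.40 to 0.088, Cldn15 -0.13 to 0.077 and Ocln -0.065 to 0.028, and HFLF minus LF gave Cldn7 -0.023 to 0.020.

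Among members, calls were gained without 1 sample in batch 2 for Cldn4 in HF against LF (without LF replicate 4 or HFLF replicate 1, adjusted p = 0.0488 and 0.0450). The lowest total count, 29189922, left all 10 members above the filter.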
